A study of Mus musculus with 6 samples.

Results

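The data describe the 10 genes for the pore-forming alpha-1 subunits of voltage-gated calcium channels in mouse retina: Cacna1a, Cacna1b, Cacna1c, Cacna1d, Cacna1e, Cacna1f, Cacna1g, Cacna1h, Cacna1i and Cacna1s. The genes were taken by symbol. All 10 were present among the 24346 symbols of the deposited tables, and all 10 reached a mean of 1 FPKM (fragments mapped per kilobase of transcript, with library size taken out) over the 6 libraries, so that all were tested. Retinal mRNA came from 3 libraries labelled Cyfip2 CKO, a conditional knockout, and from 3 libraries labelled Cyfip2 wild type (WT). Cyfip2 encodes a subunit of the WAVE complex, which controls actin assembly, and the comparison asked which transcripts differ when it is deficient in the retina. The sources used here do not give the Cre driver, the alleles, the strain, the age or the sex. Nothing states that the libraries of a group came from separate animals. The p-values thus set group differences against the spread between these libraries, which may be technical.

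A voltage-gated calcium channel is built around a single alpha-1 protein, which forms the pore, senses the membrane voltage and sets the class of current. The Cav1 subunits carry long-lasting L-type currents, the Cav2 subunits carry the P/Q-, N- and R-type currents of most nerve terminals, and the Cav3 subunits carry T-type currents, which open near the resting potential and close quickly. Cav1 and Cav2 channels also contain a cytoplasmic beta subunit and an extracellular alpha2delta subunit. In the retina, L-type channels at the ribbon synapses of photoreceptors and bipolar cells admit the calcium that drives sustained glutamate release, whereas amacrine and ganglion cells use several classes.

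Cyfip2 itself was at 8.33, 10.2 and 11.2 FPKM in CKO libraries 1 to 3, against 35.5, 63.1 and 62.3 FPKM in WT libraries 1 to 3, so WT 1 stood below the other WT libraries and above every CKO library. Between 13149 and 13242 genes reached 1 FPKM per library, and the log2 values of any pair of libraries correlated at 0.968 to 0.979 (Pearson's r across genes). The rod marker list fixed for this tissue had a summed level of 12649 to 13853 FPKM in CKO and 13279 to 14501 FPKM in WT, while the 6 skeletal muscle markers summed to 4.42 to 6.54 FPKM in CKO and 3.44 to 5.97 FPKM in WT. Summed marker levels did not overlap between the groups for several neuron types. They were 527.1 to 581.5 FPKM in CKO and 591.6 to 644.2 FPKM in WT for cones, 500.03 to 514.3 FPKM in CKO and 542.9 to 566.5 FPKM in WT for rod bipolar cells, and 174.03 to 176.5 FPKM in CKO and 182.5 to 197.1 FPKM in WT for cone bipolar cells. Horizontal cell markers summed to 36.8 to 38.01 FPKM in CKO and 42.05 to 50.7 FPKM in WT. Most of that sum was Calb1, with means of 26.6 FPKM in CKO libraries and 33.8 FPKM in WT libraries. Lhx1 and Gja10 also lay lower in every CKO library than in any WT library, while the fold change of Onecut1 lay above 0. Ganglion cell markers summed to 658.7 to 682.3 FPKM in CKO and 719.8 to 780.4 FPKM in WT. The largest parts of that sum were Nefl and Sncg. Nefl averaged 221.1 FPKM in CKO libraries and 266.0 FPKM in WT libraries, while Sncg averaged 216.4 FPKM in CKO libraries and 215.3 FPKM in WT libraries. Amacrine markers lay the other way, at 452.8 to 468.4 FPKM in CKO and 396.8 to 420.2 FPKM in WT. Fold changes lay below 0 for 7 of 7 rod, 7 of 7 cone, 6 of 6 cone bipolar, 4 of 5 horizontal and 6 of 7 ganglion cell markers. They lay above 0 for 7 of 7 amacrine markers. Over all 13215 genes tested, 6537 lay above 0 and 6678 below. The rod median log2 fold change was -0.08, and the rod sums overlapped between the groups. The rod bipolar list was mixed, with 4 of 6 markers above 0 and a median log2 fold change of 0.02. Its summed level was dominated by Pcp2, which averaged 260.2 FPKM in CKO libraries and 302.1 FPKM in WT libraries, and Trpm1, which averaged 112.2 FPKM in CKO libraries and 123.9 FPKM in WT libraries, while Sebox lay higher in every CKO library than in any WT library, with means of 41.4 FPKM in CKO libraries and 38.0 FPKM in WT libraries. No gene of these lists passed the test by itself (limma, adjusted over all 13215 genes tested). In tissue RNA, fewer cells of a type and less RNA per cell cannot be told apart.

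The stretches before the transcription starts are shown for Cacna1f, the most abundant member, Cacna1b, a channel gene of many neuron types, and Cacna1i, one of the members with the largest differences between the groups, because they differ in base composition. Sequences of 250 bases upstream of the RefSeq start (GRCm38.p6) are written 5′ to 3′ on the strand of the gene, with CG dinucleotides in capitals.
Cacna1f, chrX:7606853-7607102, plus strand: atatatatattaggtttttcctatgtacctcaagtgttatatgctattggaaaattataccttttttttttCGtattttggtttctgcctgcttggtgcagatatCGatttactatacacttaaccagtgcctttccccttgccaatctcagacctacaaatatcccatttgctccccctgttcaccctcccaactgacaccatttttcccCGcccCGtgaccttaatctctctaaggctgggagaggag
Cacna1b, chr2:24763153-24763402, minus strand: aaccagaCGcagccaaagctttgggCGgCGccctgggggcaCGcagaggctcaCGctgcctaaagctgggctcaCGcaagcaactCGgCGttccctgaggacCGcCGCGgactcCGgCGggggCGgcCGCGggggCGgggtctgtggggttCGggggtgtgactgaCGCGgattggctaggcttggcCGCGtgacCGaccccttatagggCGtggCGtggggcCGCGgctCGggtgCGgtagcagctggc
Cacna1i, chr15:80286988-80287237, plus strand: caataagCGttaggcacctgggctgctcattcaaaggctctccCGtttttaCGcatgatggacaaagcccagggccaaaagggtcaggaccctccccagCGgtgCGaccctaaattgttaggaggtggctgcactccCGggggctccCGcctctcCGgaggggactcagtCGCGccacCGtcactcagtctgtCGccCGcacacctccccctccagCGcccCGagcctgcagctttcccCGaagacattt
The Cacna1f stretch held 4 CG dinucleotides and was 41.6% G or C, whereas that of Cacna1b held 29 and was 72.0% G or C, and that of Cacna1i held 16 and was 62.4%. Over all 32851 RefSeq windows of the same length the medians were 6 CG dinucleotides and 52.4% G or C. The table held 10 windows for 7 members, all but Cacna1a, Cacna1g and Cacna1h, and the CG-richest was at a second Cacna1d start at chr14:30353487-30353736, with 50 CG dinucleotides. TAATCC, the core site of the photoreceptor factors CRX and OTX2, occurred on either strand in 1 of the 10 windows, that of Cacna1s, and in 6.3% of all windows. Its absence from the Cacna1f window says only that these letters are not in those bases.

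Cacna1f was the most abundant alpha-1 transcript of the retina in every library, followed by the T-type genes Cacna1h and Cacna1g. Averaged over the 6 libraries, the levels in FPKM, a unit per transcript length, were 68.8 for Cacna1f, 38.3 for Cacna1h, 27.5 for Cacna1g, 15.8 for Cacna1d, 14.2 for Cacna1a, 11.5 for Cacna1b, 8.12 for Cacna1i, 3.03 for Cacna1e, 2.67 for Cacna1c and 1.32 for Cacna1s. Neighbours in this order were separated, with the lowest library of the higher gene above the highest library of the lower gene, except for 2 pairs: Cacna1d and Cacna1a, and Cacna1e and Cacna1c, whose ranges over the 6 libraries overlapped. By mean level, 92.2% of tested genes were at or below Cacna1f and 3.19% at or below Cacna1s. The Cav1 class thus held both the highest and the lowest member.

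**Figure D1:**
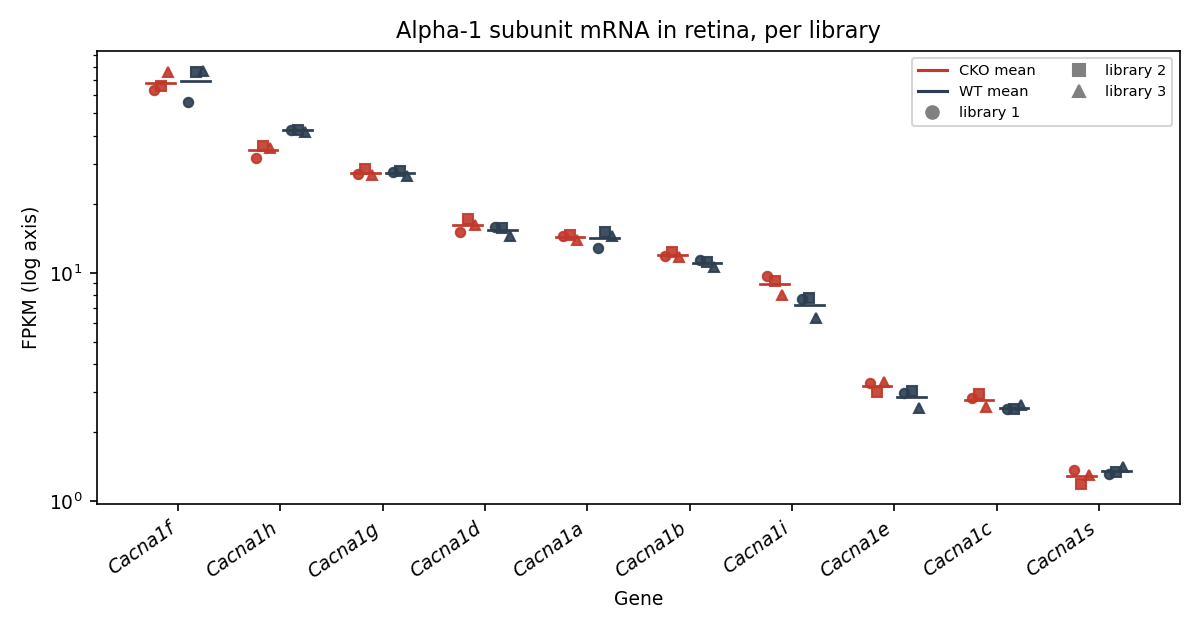
FPKM of the 10 alpha-1 genes on a log axis, with 3 CKO libraries (left of each pair) and 3 WT libraries (right), ordered by mean level; horizontal lines are group means. Cacna1f leads in all 6 libraries, Cacna1s lies lowest near 1.32 FPKM, and the CKO points lie below the WT points for Cacna1h and above them for Cacna1b and Cacna1i.

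No alpha-1 gene differed past the threshold between CKO and WT retina. By limma on log2(FPKM + 1), 0 of 10 members were called at an adjusted p of 0.05, where 0.0227% of all 13215 genes tested were called, 0.0151% higher and 0.00757% lower in CKO. An unadjusted p under 0.05 was found for 2 members, Cacna1h and Cacna1i, against 7.88% of all genes tested, 3.52% higher and 4.36% lower in CKO. The CKO and WT libraries did not overlap for 3 members, with Cacna1h lower in CKO and Cacna1b and Cacna1i higher in CKO. Groups did not overlap for 13.9% of all genes tested, with 6.96% higher and 6.95% lower in CKO. Fold changes lay above 0 for 7 members and below 0 for 3, with a median log2 fold change of 0.04, beside -0.0016 over all genes tested.

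**Figure D2:**
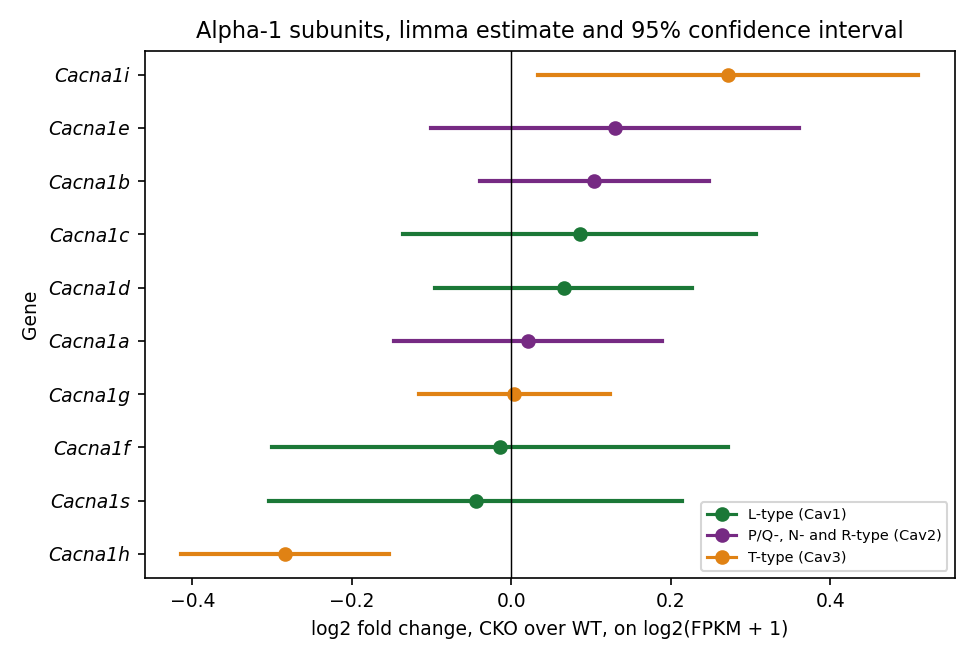
Log2 fold change of each alpha-1 gene, CKO over WT, on the log2(FPKM + 1) scale, with limma's 95% confidence interval as a bar and the channel class as colour. The intervals of Cacna1h (-0.41 to -0.15) and Cacna1i (0.03 to 0.51) exclude 0 before adjustment over all genes, and those of the other 8 members include it.

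Among the L-type genes, Cacna1f encodes Cav1.4, the channel of photoreceptor ribbon synapses, whose loss in humans causes a form of night blindness. It is on chromosome X from 7607083 to 7635196 on the plus strand (GRCm38), and at 28.1 kb it is the shortest of the 10 genes. Its level was 63.0, 65.9 and 75.8 FPKM in CKO libraries 1 to 3, against 56.0, 75.8 and 76.5 FPKM in WT libraries 1 to 3. WT 1 was the lowest of all 6 libraries and the other WT libraries were the highest, so that the CKO values lay within the WT range. The means were 68.2 ± 6.68 FPKM in CKO retina and 69.4 ± 11.6 FPKM in WT retina (SD, n = 3 per group), with a log2 fold change of -0.01 (SE 0.12, 95% confidence interval -0.30 to 0.27). Without WT 1 the log2 fold change was -0.16, with a limma adjusted p of 0.6537.

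Of all tested genes with an established symbol, those whose levels followed Cacna1f most closely over the 6 libraries were Ctsa (r = 0.996), Zfyve27 (0.995), Mpp4 (0.994), Prph2 (0.992) and Wdr20 (0.990). Prph2 encodes peripherin-2, a structural protein of photoreceptor discs, and Mpp4 a scaffold of photoreceptor terminals. These values are Pearson's r on log2(FPKM + 1), and 216 of 12437 genes compared had an r above 0.9. With 6 libraries, of which WT 1 stands apart, such values are a description.

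Cacna1d encodes Cav1.3, an L-type channel that opens at more negative voltages and is also known from hair cells. Its level was 15.1, 17.3 and 16.2 FPKM in CKO libraries 1 to 3, against 15.9, 15.8 and 14.5 FPKM in WT libraries 1 to 3, and the groups overlapped. The log2 fold change was 0.07 (SE 0.07, interval -0.10 to 0.23). Cacna1d occupies bases 30039939 to 30491455 of chromosome 14 (minus strand) and overlaps Dcp1a on the other strand by 11921 bases. Dcp1a, a decapping factor gene, was listed at 8.39 to 9.36 FPKM. The library kit keeps strand, but the sources used here do not say how strand was used in counting.

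Cacna1c encodes Cav1.2, the L-type channel of heart and smooth muscle that neurons also use. It was at 2.82, 2.95 and 2.59 FPKM in CKO libraries 1 to 3, against 2.53, 2.54 and 2.63 FPKM in WT libraries 1 to 3, with overlapping groups and a log2 fold change of 0.09 (SE 0.10, interval -0.14 to 0.31). The 6 smooth muscle and pericyte markers summed to 34.2 to 43.02 FPKM in CKO and 33.7 to 40.03 FPKM in WT. Cacna1c is the longest of the 10 genes, with 609.2 kb between bases 118587240 and 119196418 of chromosome 6, and shares 21166 bases with Dcp1b on the other strand, which was listed at 4.14 to 6.39 FPKM.

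Cacna1s encodes Cav1.1, the voltage sensor of skeletal muscle. Its level was 1.36, 1.19 and 1.303 FPKM in CKO libraries 1 to 3, against 1.31, 1.35 and 1.41 FPKM in WT libraries 1 to 3. The groups overlapped, and the level was close to constant over the libraries. Of the 6 skeletal muscle markers, Mylpf was at 2.43 to 3.93 FPKM in CKO and 1.16 to 3.59 FPKM in WT, and Acta1 at 1.45 to 2.201 FPKM in CKO and 1.84 to 1.88 FPKM in WT. Ckm and Actn3 stayed below 1 FPKM in every library, and Myh4 and Tnnt3 were listed at 0 in several. The log2 fold change was -0.04 (SE 0.11, interval -0.30 to 0.21). The gene occupies bases 136052750 to 136119822 of chromosome 1 (plus strand), and an antisense transcript, Gm37759, covers 3246 bases of it in the annotation. Over the 6 libraries Cacna1s ran opposite to Cacna1d (r = -0.97), the closest relation in size among the 45 pairs of members, within a narrow range of both genes. As the extreme of 45 values over 6 libraries, with Cacna1s near 1 FPKM, it is a description with no test.

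Summed over the 4 L-type genes, the level was 82.3, 87.3 and 95.8 FPKM in CKO libraries 1 to 3, against 75.7, 95.5 and 95.01 FPKM in WT libraries 1 to 3. Cacna1f made up 75.5% to 79.1% of this sum in CKO and 74.0% to 80.5% in WT. The means were 88.5 ± 6.85 FPKM in CKO retina and 88.7 ± 11.3 FPKM in WT retina (SD, n = 3 per group). The difference of the mean log2 sums, CKO minus WT, was 0.0013 (exact permutation test over samples, two-sided, p = 1, adjusted p = 1 over the 3 class sums), and was -0.109 without WT 1 and -0.0578 without CKO 3, so that no direction held. With 3 against 3 libraries this exact test cannot go below p = 0.1.

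The Cav2 genes, whose channels trigger release at most central synapses, were at moderate to low levels. Cacna1a, which encodes the P/Q-type channel, was at 14.4, 14.7 and 13.9 FPKM in CKO libraries 1 to 3, against 12.8, 15.1 and 14.5 FPKM in WT libraries 1 to 3. The CKO values lay within the WT range, and the log2 fold change was 0.02 (SE 0.07, interval -0.15 to 0.19), which turned to -0.04 without WT 1. Cacna1a occupies bases 84388440 to 84640246 of chromosome 8 (plus strand) and overlaps the antisense gene Gm16183 by 5983 bases.

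Cacna1b, which encodes the N-type channel, was at 11.8, 12.3 and 11.7 FPKM in CKO libraries 1 to 3, against 11.4, 11.2 and 10.6 FPKM in WT libraries 1 to 3. Every CKO library lay above every WT library, by a narrow margin. The means were 11.97 ± 0.329 FPKM in CKO retina and 11.1 ± 0.411 FPKM in WT retina (SD, n = 3 per group), a difference of 8.14%. The log2 fold change of 0.10 (SE 0.06, interval -0.04 to 0.25) did not pass the threshold (limma adjusted p = 0.7498). The gene occupies bases 24603887 to 24763152 of chromosome 2 (minus strand).

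Cacna1e, which encodes the R-type channel, was at 3.28, 3.01 and 3.32 FPKM in CKO libraries 1 to 3, against 2.96, 3.03 and 2.55 FPKM in WT libraries 1 to 3. The groups overlapped at CKO 2 and WT 2, and the log2 fold change was 0.13 (SE 0.10, interval -0.10 to 0.36). Cacna1e occupies bases 154390731 to 154884501 of chromosome 1 (minus strand), on the same chromosome as Cacna1s. Summed over the 3 Cav2 genes, the level was 29.5 ± 0.515 FPKM in CKO retina and 28.1 ± 1.16 FPKM in WT retina (SD, n = 3 per group). The difference of the mean log2 sums was 0.07 (exact permutation test, two-sided, p = 0.2, adjusted p = 0.3 over the 3 class sums).

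The T-type genes held the largest differences of the family in both directions. Cacna1h, which encodes Cav3.2, was at 32.0, 36.2 and 35.3 FPKM in CKO libraries 1 to 3, against 42.3, 42.5 and 41.7 FPKM in WT libraries 1 to 3. All CKO libraries lay below all WT libraries, and the WT libraries lay close together. The means were 34.5 ± 2.23 FPKM in CKO retina and 42.1 ± 0.434 FPKM in WT retina (SD, n = 3 per group), so that the CKO mean was 18.1% below the WT mean. On the log2 scale the change was -0.28 (SE 0.06, 95% confidence interval -0.41 to -0.15), with an unadjusted p of 0.001056, the 48th smallest of 13215 in the limma fit, and an adjusted p of 0.2905, which did not pass the threshold. Over the 17 alternative fits the log2 fold change stayed between -0.32 and -0.23, and the adjusted p between 0.2049 and 0.7418. Cacna1h occupies bases 25374285 to 25433783 of chromosome 17 (minus strand), and its end overlaps the tryptase gene Tpsg1 on the other strand by 158 bases. Tpsg1 was listed at 0 to 1.13 FPKM.

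Cacna1i, which encodes Cav3.3, the slowest of the T-type channels, lay in the other direction. Its level was 9.72, 9.21 and 7.98 FPKM in CKO libraries 1 to 3, against 7.71, 7.75 and 6.33 FPKM in WT libraries 1 to 3. Every CKO library lay above every WT library, although CKO 3 stood close to WT 1 and WT 2. The means were 8.97 ± 0.895 FPKM in CKO retina and 7.26 ± 0.805 FPKM in WT retina (SD, n = 3 per group), so that the CKO mean was 23.5% above the WT mean. The log2 fold change was 0.27 (SE 0.10, interval 0.03 to 0.51), with an unadjusted p of 0.03034 and a limma adjusted p of 0.5915. The unadjusted p was above 0.05 without CKO 1, CKO 2 or WT 3 (0.1014, 0.08595 and 0.1018 in that order). Cacna1i occupies bases 80287238 to 80398279 of chromosome 15 (plus strand), and no other annotated gene overlaps it.

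Cacna1g, which encodes Cav3.1, was at nearly the same level in all libraries. It was at 27.1, 28.6 and 26.8 FPKM in CKO libraries 1 to 3, against 27.8, 28.0 and 26.5 FPKM in WT libraries 1 to 3. The log2 fold change was 0.0034 (SE 0.05, interval -0.12 to 0.12), and its coefficient of variation over the 6 libraries, 2.99%, was the smallest of the 10 members. Cacna1g occupies bases 94408391 to 94474198 of chromosome 11 (minus strand).

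**Figure D3:**
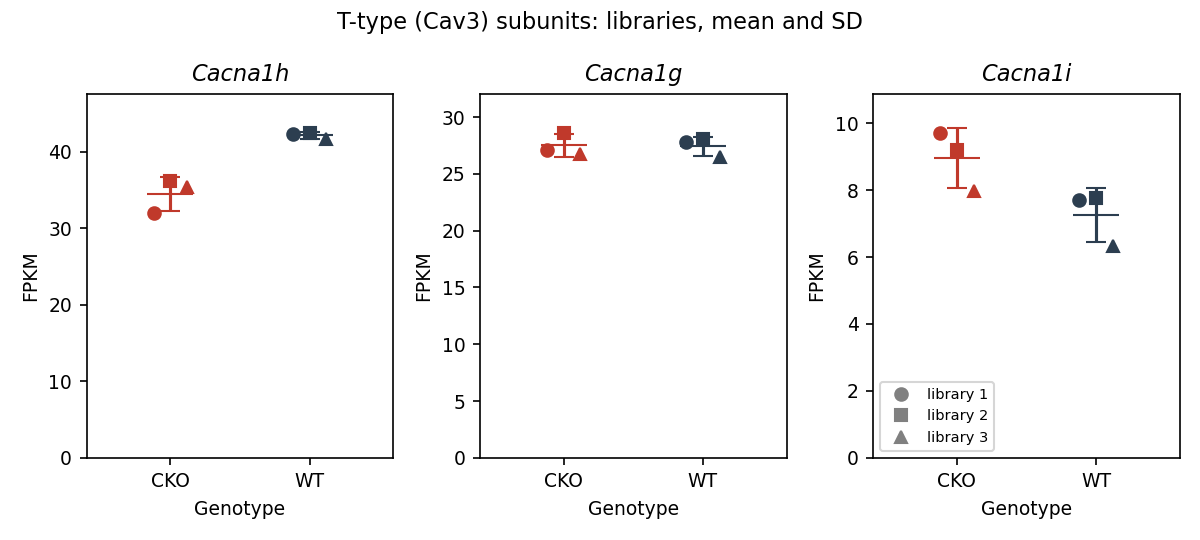
FPKM of the T-type genes Cacna1h, Cacna1g and Cacna1i in 3 CKO and 3 WT libraries, each panel on its own axis from 0, with the mean and SD per group. CKO libraries sit below WT libraries for Cacna1h (32.0 to 36.2 against 41.7 to 42.5 FPKM), overlap them for Cacna1g and sit above them for Cacna1i.

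Within the T-type genes, Cacna1h took a smaller share and Cacna1i a larger share of the summed level in every CKO library than in any WT library. The share of Cacna1g, whose level hardly differed, was also larger, at 38.2% to 39.4% in CKO and 35.6% to 35.8% in WT. The ratio of Cacna1h to Cacna1g was 1.18, 1.26 and 1.32 in CKO libraries 1 to 3, against 1.52, 1.52 and 1.57 in WT libraries 1 to 3, with no overlap. Cacna1h made up 48.6% ± 2.001 of the summed T-type level in CKO and 54.9% ± 0.929 in WT (SD, n = 3 per group), and Cacna1i 12.7% ± 1.38 in CKO and 9.44% ± 0.809 in WT. These shares restate the levels of the genes and are a description with no test. The summed T-type level was 68.8, 74.0 and 70.1 FPKM in CKO libraries 1 to 3, against 77.7, 78.3 and 74.5 FPKM in WT libraries 1 to 3. The groups did not overlap, with a difference of the mean log2 sums of -0.11, and the exact permutation test gave p = 0.1, the smallest p it allows (two-sided, adjusted p = 0.3 over the 3 class sums). In the same CKO libraries the summed levels of the cone, cone bipolar, horizontal and ganglion cell markers lay below those of the WT libraries. The amacrine sum lay above. The rod bipolar sum lay below with 4 of its 6 markers at fold changes above 0, and most of the horizontal sum was Calb1. The part of these differences in the values of Cacna1h, Cacna1b and Cacna1i was not tested.

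Taking the 10 members as a whole, their summed level was 180.6, 191.4 and 194.9 FPKM in CKO libraries 1 to 3, against 180.7, 203.1 and 197.1 FPKM in WT libraries 1 to 3, and the groups overlapped. Cacna1f contributed 36.1% ± 2.44 of it in CKO and 35.7% ± 4.13 in WT (SD, n = 3 per group). Cacna1h contributed 18.2% ± 0.612 in CKO and 21.8% ± 1.37 in WT. Cacna1c, Cacna1e and Cacna1s each contributed at most 1.82% in any library.

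**Figure D4:**
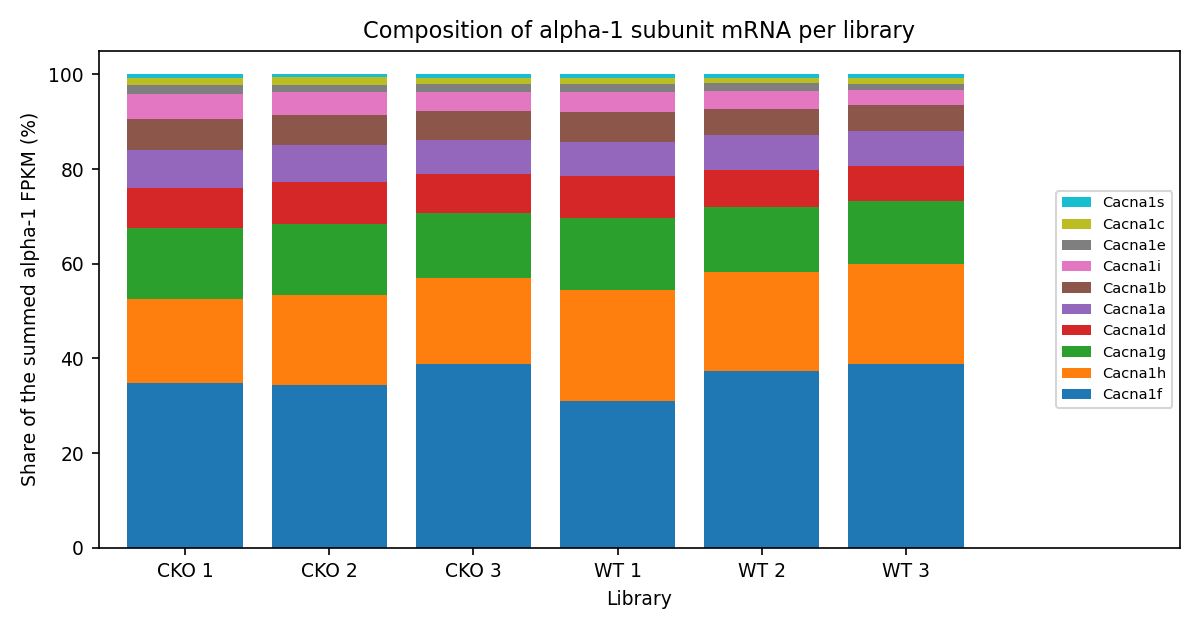
Share of each alpha-1 gene in the summed alpha-1 FPKM, as stacked bars for CKO libraries 1 to 3 and WT libraries 1 to 3. Cacna1f takes 31.0% to 38.9%, and Cacna1h takes 17.7% to 18.9% in CKO and 20.9% to 23.4% in WT.

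The auxiliary subunits showed no difference past the threshold. Of 16 genes on the list 14 were tested, and limma called 0 of them. An unadjusted p under 0.05 was found for 2, both higher in CKO, beside 7.88% of all genes tested in either direction and 3.52% higher in CKO. The CKO and WT libraries did not overlap for 3 genes higher and 1 gene lower in CKO. Over all genes tested, 6.96% were higher and 6.95% lower without overlap. Fold changes lay above 0 for 6 and below 0 for 8, with a median log2 fold change of -0.0081. Cacng6 was listed at 0 in all libraries and Cacng1 at 0 to 0.556 FPKM, and both encode gamma subunits of muscle channels.

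Among the beta subunits, which bring Cav1 and Cav2 channels to the membrane, Cacnb2, the form needed at photoreceptor terminals in mice, was the most abundant, at 42.0 ± 3.26 FPKM in CKO retina and 43.2 ± 2.55 FPKM in WT retina (SD, n = 3 per group). Cacnb3 was at 33.3, 34.96 and 37.0 FPKM in CKO libraries 1 to 3, against 37.4, 41.4 and 37.6 FPKM in WT libraries 1 to 3. The Cacnb3 groups did not overlap, although CKO 3 and WT 1 were close, and its log2 fold change was -0.14 (SE 0.06, limma adjusted p = 0.6344). Cacnb1 averaged 12.3 FPKM in both groups, and Cacnb4 7.36 FPKM in CKO and 6.96 FPKM in WT.

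Among the alpha2delta subunits, which promote surface expression of the channel, Cacna2d4, the form of photoreceptor synapses, was the most abundant, at 86.9 ± 3.48 FPKM in CKO retina and 88.2 ± 1.15 FPKM in WT retina (SD, n = 3 per group). It made up 56.2% to 57.0% of the alpha2delta sum in CKO and 57.4% to 58.5% in WT. Cacna2d2 had the smallest adjusted p of the list. It was at 34.0, 35.4 and 37.0 FPKM in CKO libraries 1 to 3, against 31.4, 31.9 and 31.6 FPKM in WT libraries 1 to 3, with every CKO library above every WT library and a log2 fold change of 0.16 (SE 0.05, limma adjusted p = 0.5064). Cacna2d1 averaged 14.6 FPKM in CKO retina and 15.2 FPKM in WT retina, and Cacna2d3 16.1 FPKM in CKO and 17.6 FPKM in WT, both with overlapping groups.

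The remaining tested list members are the transmembrane AMPA receptor regulatory proteins (TARPs), which carry gamma subunit names but serve mainly AMPA receptors. Cacng7 was the most abundant, at 95.2 FPKM in CKO retina and 95.7 FPKM in WT retina. Cacng3 was at 33.2, 34.7 and 36.1 FPKM in CKO libraries 1 to 3, against 30.8, 32.9 and 29.8 FPKM in WT libraries 1 to 3, with no overlap and a log2 fold change of 0.15 (SE 0.06, limma adjusted p = 0.5915). Cacng4 also did not overlap, with means of 50.5 FPKM in CKO and 47.5 FPKM in WT (log2 fold change 0.08, limma adjusted p = 0.7163). Cacng5 (19.3 FPKM in CKO and 20.2 FPKM in WT), Cacng2 (9.14 and 9.15 FPKM) and Cacng8 (2.73 and 2.78 FPKM) had overlapping groups.

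**Figure D5:**
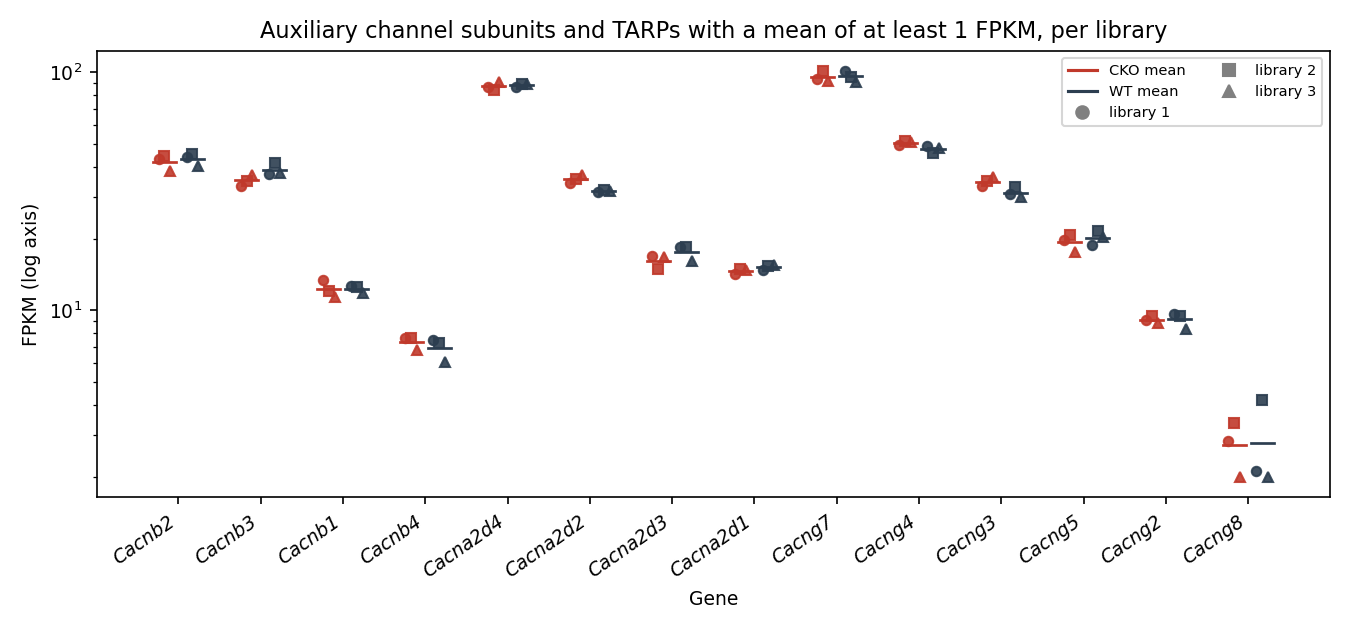
FPKM on a log axis of the 14 tested auxiliary subunit and TARP genes, with beta genes first, alpha2delta genes next and TARPs last, in 3 CKO (left) and 3 WT (right) libraries with group means as lines. CKO points lie above WT points for Cacna2d2, Cacng3 and Cacng4 and below them for Cacnb3, and the groups of the other genes overlap. Groups did not overlap for 13.9% of all genes tested.

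Set against the alpha-1 genes that use them, the summed beta level per unit of summed Cav1 and Cav2 level was 0.822 ± 0.0643 in CKO and 0.874 ± 0.105 in WT, and the summed alpha2delta level 1.299 ± 0.0468 in CKO and 1.32 ± 0.135 in WT (SD, n = 3 per group). WT 1, in which Cacna1f was lowest, had the highest value of both ratios, 0.987 and 1.47. Cacna1f is part of the level that both ratios are divided by, so a low Cacna1f raises them by arithmetic.

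Proteins that bind or regulate the channels, those of the release site and the calcium transporters that clear entry from the cell held no called gene either. Of the 15 regulators 11 were tested, with 1 at an unadjusted p under 0.05. Of the 19 release site genes 18 were tested, with 1 such gene. Of the 12 clearance genes 10 were tested, with none. Over all genes tested the share was 7.88%, so that 1 gene in lists of this length is near the background. Their median log2 fold changes were 0.02, -0.01 and 0.02. Groups did not overlap for 1 regulator higher and 1 lower in CKO, and for 3 release site genes higher and 2 lower. All tested clearance genes overlapped. The shares without overlap over all genes tested were 6.96% higher and 6.95% lower in CKO. Stac2, an adaptor that binds L-type channels and reduces their calcium-dependent inactivation, was at 34.3, 40.0 and 40.4 FPKM in CKO libraries 1 to 3, against 32.2, 33.3 and 34.6 FPKM in WT libraries 1 to 3. Its groups overlapped at CKO 1, and its log2 fold change was 0.19 (SE 0.07, limma adjusted p = 0.5913). Rimbp2, which links calcium channels to the active zone protein RIM, was at 14.3, 12.9 and 13.5 FPKM in CKO libraries 1 to 3, against 11.3, 12.4 and 10.2 FPKM in WT libraries 1 to 3. Every CKO library lay above every WT library, with a log2 fold change of 0.25 (SE 0.08, limma adjusted p = 0.5383).

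No gene of these lists was called. The genes given next were chosen by role, and some more abundant genes of the lists are not among them. Calm2, which encodes calmodulin, the calcium sensor bound to Cav1 and Cav2 channels, was at 377.6 FPKM in CKO libraries and 402.7 FPKM in WT libraries, with overlapping groups. Cabp4, a calcium-binding partner of Cav1.4 in photoreceptors, was at 106.7 ± 3.59 FPKM in CKO retina and 105.2 ± 6.11 FPKM in WT retina (SD, n = 3 per group). Ano2, a calcium-activated chloride channel of photoreceptor terminals, was at 40.4 FPKM in CKO retina and 41.0 FPKM in WT retina. Kcnma1, the BK potassium channel, was at 32.2 FPKM in CKO retina and 33.5 FPKM in WT retina (log2 fold change -0.05, limma adjusted p = 0.81). Its groups did not overlap, by a narrow margin, with CKO 1 at 33.2 FPKM and WT 1 at 33.3 FPKM. Slc24a1, the calcium exchanger of rod outer segments, was at 224.1 FPKM in CKO retina and 221.4 FPKM in WT retina. Atp2a2, a calcium pump of the endoplasmic reticulum, was at 97.6 FPKM in CKO retina and 96.5 FPKM in WT retina.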

How the data were processed

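Mouse retinal mRNA of 3 CKO and 3 WT libraries was analysed, grouped by the sample titles. TRIzol extraction and TruSeq stranded mRNA libraries are stated per the labels' protocols. Cufflinks 2.2.1, TopHat2 2.0.13, Bowtie2 2.3.5.1, SAMtools 1.11 and the build mm10 are named, without roles, per the submitters' processing notes; the annotation, filters and use of strand are not stated there. The authors' deposited values are FPKM, judged from Cufflinks and from the values, already on a common scale between libraries (median log2 deviations of -0.0007 to 0.0026). In WT 3, 27 symbols stored as dates were restored from the same rows of the other libraries; none is a calcium channel gene.

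FPKM keeps no counts, so no counting interval could be set. For low genes (mean under 0.3 FPKM), 69.3% to 74.0% of the ratios to WT 1 matched ratios of whole numbers from 1 to 4, with a log2 tolerance of 0.02, at relative depths of 1.04 to 1.301; absolute depth is unknown and no reads were recovered.

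Values were transformed to log2(FPKM + 1), a scale that understates fold changes of low genes. The 13215 genes averaging 1 FPKM or more were fitted with limma 3.58.1 in R 4.3.3 (eBayes with a variance trend, two-sided, no covariate, Benjamini-Hochberg over all genes, threshold 0.05). The fit was tested on simulated data. Positions are from GENCODE M21 (GRCm38), in which 95.7% of symbols were found, and upstream sequences from RefSeq (GRCm38.p6). The members, gene lists and tests were chosen with earlier results of these data known. Named genes are the members, Cyfip2, auxiliary subunits averaging 1 FPKM or more, and, by role in the other lists, genes with an unadjusted p under 0.05 or else the 2 of highest level, plus the 5 genes most like Cacna1f; Cabp4 was added for its known binding to Cav1.4, and Cacna1f's correlates exclude predicted genes. A gene that the rule selects is not reported here. The fit was repeated with pseudocounts of 0.1 or 0.01, without the filter or with minimum means of 0.1 or 5 FPKM, after rescaling by size factors or quantiles, with a replicate block, with robust eBayes, with no variance trend, with sample weights, and with each library left out.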

Additional observations from a re-analysis of the deposited data

How the results depend on the processing

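No alpha-1 gene and no gene of the auxiliary, regulator, release site and clearance lists was called in any of the 17 alternative fits. The signs of Cacna1b, Cacna1c, Cacna1d, Cacna1e, Cacna1h, Cacna1i and Cacna1s held in each alternative that tested them; a minimum mean of 5 FPKM left out Cacna1c, Cacna1e and Cacna1s. The sign turned for Cacna1f with quantile normalization (0.0046). With 1 library left out, log2 fold changes ran from -0.1598 to 0.0612 for Cacna1f, -0.0429 to 0.0688 for Cacna1a and -0.0249 to 0.0222 for Cacna1g, and the difference of the mean log2 summed L-type level from -0.109 to 0.0582; the cause was not tested. Over all genes, 2 were called higher and 1 lower in CKO. The gene called lower was Cyfip2 (log2 fold change -2.29, limma adjusted p = 0.0239). The higher count was 1 with the replicate block and without the variance trend, and 1 to 3 with a library left out. The lower count was 0 with robust eBayes, with no filter on low values and when the variance trend was dropped. It was 0 to 1 with a library left out. Fits with a lower count of 0 did not call Cyfip2 itself, so the lack of a channel gene call there says little.

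The replicate numbers are not said to pair the libraries. Deviations of same-numbered libraries from their group means correlated at 0.07, 0.0063 and 0.10, and those of unlike numbers at -0.12 to 0.04. CKO 1 correlated best with WT 1 and CKO 3 with WT 3, but CKO 2 correlated best with WT 1. These values do not settle whether the libraries are paired. As no source pairs them, the main fit used no block. With the replicate block the count of genes at an unadjusted p under 0.05 was 1271 in place of 1041, and Cacna1h and Cacna1i had adjusted p-values of 0.3008 and 0.3945 (limma). In this balanced design a block cannot change the differences of the mean log2 sums (0.0013 for L-type, 0.07 for Cav2 and -0.11 for T-type). Their being unchanged is thus no check on them.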
